A study of Mus musculus with 2 samples.

Results

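The 8 genes described here are the proneural and neurogenic members of the basic helix-loop-helix (bHLH) family: Neurog1, Neurog2, Neurod1, Neurod2, Neurod4, Neurod6, Nhlh1 and Nhlh2. They were chosen by gene symbol, as 8 of the 32285 genes counted, and all 8 symbols were found. The cells came from the corticoseptal boundary, the midline tissue between cortex and septum, of mouse embryos at E16.5. There was 1 library from wild-type mice (WT) and 1 from Tcf4f/f;Emx1Cre mice (Tcf4 cKO, written cKO), which carry floxed Tcf4 alleles and a Cre recombinase driven by Emx1. Emx1 is active in progenitors of the dorsal telencephalon, so that subpallial cells in the same tissue lie outside the main Cre lineage. The labels give neither the number of embryos in a library nor the Cre or floxed-allele status of the WT mice.

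Proneural factors such as the Neurog proteins start neuronal differentiation in progenitors, and Neurod and Nhlh factors act downstream of them as daughter cells leave the cycle and mature. Each binds DNA as a dimer with an E protein (Tcf3, Tcf4 or Tcf12) at a short sequence called an E-box, while Id proteins bind E proteins and keep them from DNA. In the dorsal telencephalon, radial glia produce intermediate progenitors that express Eomes, and these give glutamatergic neurons. Subpallial progenitors give GABAergic neurons.

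The gene models were compact in GENCODE vM21 (mm10): Neurog2 on chr3:127633135-127635631 (+ strand), Neurog1 on chr13:56250478-56252163 (- strand), Neurod1 on chr2:79452521-79456751 (-), Neurod2 on chr11:98325415-98329648 (-), Neurod4 on chr10:130268152-130280240 (-), Neurod6 on chr6:55677822-55681263 (-), Nhlh1 on chr1:172052292-172057573 (-) and Nhlh2 on chr3:102010076-102015492 (+). Neurog1 has 1 exon, Nhlh2 has 2 to 3 depending on the transcript, and the others have 2. Neurod1 overlaps Cerkl on its own strand and Gm26755 on the other, so some of its reads could have been assigned differently, and none of the other 7 overlaps another gene.

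The 4 members called in both cycling intermediate progenitors and transitional cells are shown by the 250 bases before their annotated start (RefSeq, GRCm38.p6, sense strand). Neurod4 and Nhlh1 had lower levels in cKO, and Neurod2 and Neurod6 had higher ones. Capitals mark each E-box, CANNTG, a motif that reads the same way on both strands. 
Nhlh1, chr1:172057597-172057846: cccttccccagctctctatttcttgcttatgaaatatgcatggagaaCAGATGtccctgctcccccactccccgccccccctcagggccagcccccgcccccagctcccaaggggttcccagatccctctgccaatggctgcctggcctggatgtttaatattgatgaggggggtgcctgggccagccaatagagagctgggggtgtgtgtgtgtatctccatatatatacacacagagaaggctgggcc
Neurod4, chr10:130280255-130280504: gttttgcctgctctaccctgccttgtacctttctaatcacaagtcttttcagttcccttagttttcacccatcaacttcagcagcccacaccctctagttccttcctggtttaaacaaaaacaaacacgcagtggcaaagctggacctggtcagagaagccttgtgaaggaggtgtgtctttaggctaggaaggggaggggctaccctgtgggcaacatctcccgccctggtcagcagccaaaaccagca
Neurod2, chr11:98329646-98329895: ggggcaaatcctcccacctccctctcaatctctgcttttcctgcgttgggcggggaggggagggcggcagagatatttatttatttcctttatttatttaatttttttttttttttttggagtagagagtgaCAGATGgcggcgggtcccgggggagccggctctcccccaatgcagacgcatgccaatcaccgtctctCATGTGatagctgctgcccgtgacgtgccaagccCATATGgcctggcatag
Neurod6, chr6:55681264-55681513: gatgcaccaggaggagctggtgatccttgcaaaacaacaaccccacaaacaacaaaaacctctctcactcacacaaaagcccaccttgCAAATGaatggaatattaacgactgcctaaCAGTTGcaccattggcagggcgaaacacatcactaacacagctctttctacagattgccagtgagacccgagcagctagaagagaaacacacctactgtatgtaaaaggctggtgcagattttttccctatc

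The Nhlh1 window held 1 E-box, CAGATG, 203 bases before the start. The Neurod2 window held 3, at 118, 51 and 17 bases before the start, of which the first was CAGATG. Neurod6 held CAAATG and CAGTTG, and Neurod4 held none in this window or in that of its second annotated start. Over all 8 members, 5 had a CANNTG in the window and 3 (Neurog1, Neurog2 and Neurod4) had none. Of 32851 annotated promoters of the same length, 66.2% held a CANNTG, and 14.4% held CAGATG or its reverse complement CATCTG, which overlaps CANNTG. Nhlh1, Nhlh2 and Neurod2 were the 3 members with that form. The letters describe the windows and do not show binding.

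The libraries held 116998498 (WT) and 121321247 (cKO) UMIs, unique molecular identifiers that each mark 1 captured transcript. Filters kept 8634 WT cells (median 9660 UMIs) and 10142 cKO cells (median 8152 UMIs), and 23 cell barcodes occurred in both libraries. Levels are given as CPM, the UMIs of a gene scaled to the UMI total of its cell class. The 95% intervals, Poisson for a level, conditional binomial for a ratio and Clopper-Pearson for a share of cells, cover counting error only. With 1 library per genotype, nothing below has a replicate check and no test between genotypes could be made. A difference is called where the cKO to WT ratio is at least 1.5-fold in either direction, its interval excludes 1 and the gene has at least 20 UMIs over both libraries.

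Classes were built from clusters computed without the 8 members or Tcf4, and each name means cells like that type by marker genes. Cells were counted in pallial radial glia (571 WT and 825 cKO), cycling pallial radial glia (515 and 679), intermediate progenitors (602 and 788), cycling intermediate progenitors (319 and 199), and transitional cells, whose markers of intermediate progenitors and of glutamatergic neurons were of similar strength (423 and 1022). Glutamatergic neurons numbered 1156 and 1615, subpallial progenitors 209 and 185, cycling subpallial progenitors 331 and 334, and GABAergic neurons 2417 and 2740. Most of the glutamatergic class lay in clusters held by 1 library: cluster 16 had 635 WT and 4 cKO cells, and cluster 6 had 12 and 841. Cluster 5 (492 and 453 cells) was its only evenly shared cluster. Cluster 11 (305 and 378 cells), led by Cyp26b1 and Cck, stayed unnamed, and the Cajal-Retzius marker Calb2 was among its leading genes. Values for clusters 5 and 11 are given beside those of the class.

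Tcf4, the targeted gene, was lower in cKO in all 6 pallial classes, with ratios from 0.593 in intermediate progenitors to 0.726 in transitional cells, and from 0.810 to 0.927 in the 3 subpallial and GABAergic classes. The labels do not name the floxed exon, and counting at the 3′ end of transcripts does not show whether the remaining Tcf4 transcripts carry it.

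In the WT library the members followed one another along the pallial sequence. Neurog2, the main pallial proneural factor, held 87.2 CPM in cycling radial glia, 392 CPM in radial glia, 734 CPM in cycling intermediate progenitors and 1085 CPM in intermediate progenitors. It then fell to 101 CPM in transitional cells and 42.4 CPM in glutamatergic neurons. Radial glia were not uniform in Neurog2: cluster 9, led by the medial pallial gene Wnt8b, held 713 CPM (683 to 743), and cluster 13, led by Hopx, held 88.0 CPM (78.1 to 98.8). Neurog1, which is close to Neurog2 in sequence, had only 30 UMIs in 26 of the 602 intermediate progenitors, or 5.20 CPM (3.51 to 7.42), and 3.60 CPM in the cycling ones. No Neurog1 UMI was found in transitional cells of either library, which allows up to 0.807 (WT) and 0.403 (cKO) CPM (3 counts).

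Neurod4, a factor of neuronal precursors, peaked in the intermediate progenitor classes. It held 99.3 CPM (90.3 to 109) in cycling intermediate progenitors and 98.3 CPM (90.4 to 107) in the non-cycling ones, which do not differ beyond counting error. It was at 1.27 CPM in radial glia, 11.8 CPM in transitional cells and 0.376 CPM in glutamatergic neurons. Neurod1, which acts at the exit from the progenitor state, held 3.17 CPM in radial glia, 237 CPM in cycling and 368 CPM in other intermediate progenitors, 822 CPM in transitional cells and 254 CPM in glutamatergic neurons. Nhlh1 and Nhlh2, related factors of newborn neurons, also had their highest pallial level in transitional cells. Nhlh1 went from 67.4 CPM in intermediate progenitors to 110 CPM and then 19.6 CPM in glutamatergic neurons, and Nhlh2 from 40.6 CPM to 161 CPM and 48.9 CPM.

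Neurod2 and Neurod6, factors of maturing glutamatergic neurons, increased at each step from radial glia onward. Neurod2 held 7.76 CPM in radial glia, 178 CPM in intermediate progenitors, 436 CPM in transitional cells and 585 CPM in glutamatergic neurons. Neurod6 held 13.1, 486, 777 and 1234 CPM in the same classes. Among radial glia, intermediate progenitors, glutamatergic neurons, subpallial progenitors and GABAergic neurons of the WT library, 5 of the 8 members (Neurog1, Neurog2, Neurod1, Neurod4 and Nhlh1) were highest in intermediate progenitors, and Neurod2, Neurod6 and Nhlh2 in glutamatergic neurons. The cKO library had the same class with the highest level for each of Neurog1, Neurog2, Neurod1, Neurod2, Neurod6, Nhlh1 and Nhlh2 when transitional and cycling cells are counted as well. Neurod4 was highest in cycling intermediate progenitors in WT and in the non-cycling ones in cKO (60.4 against 48.6 CPM).

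**Figure D1:**
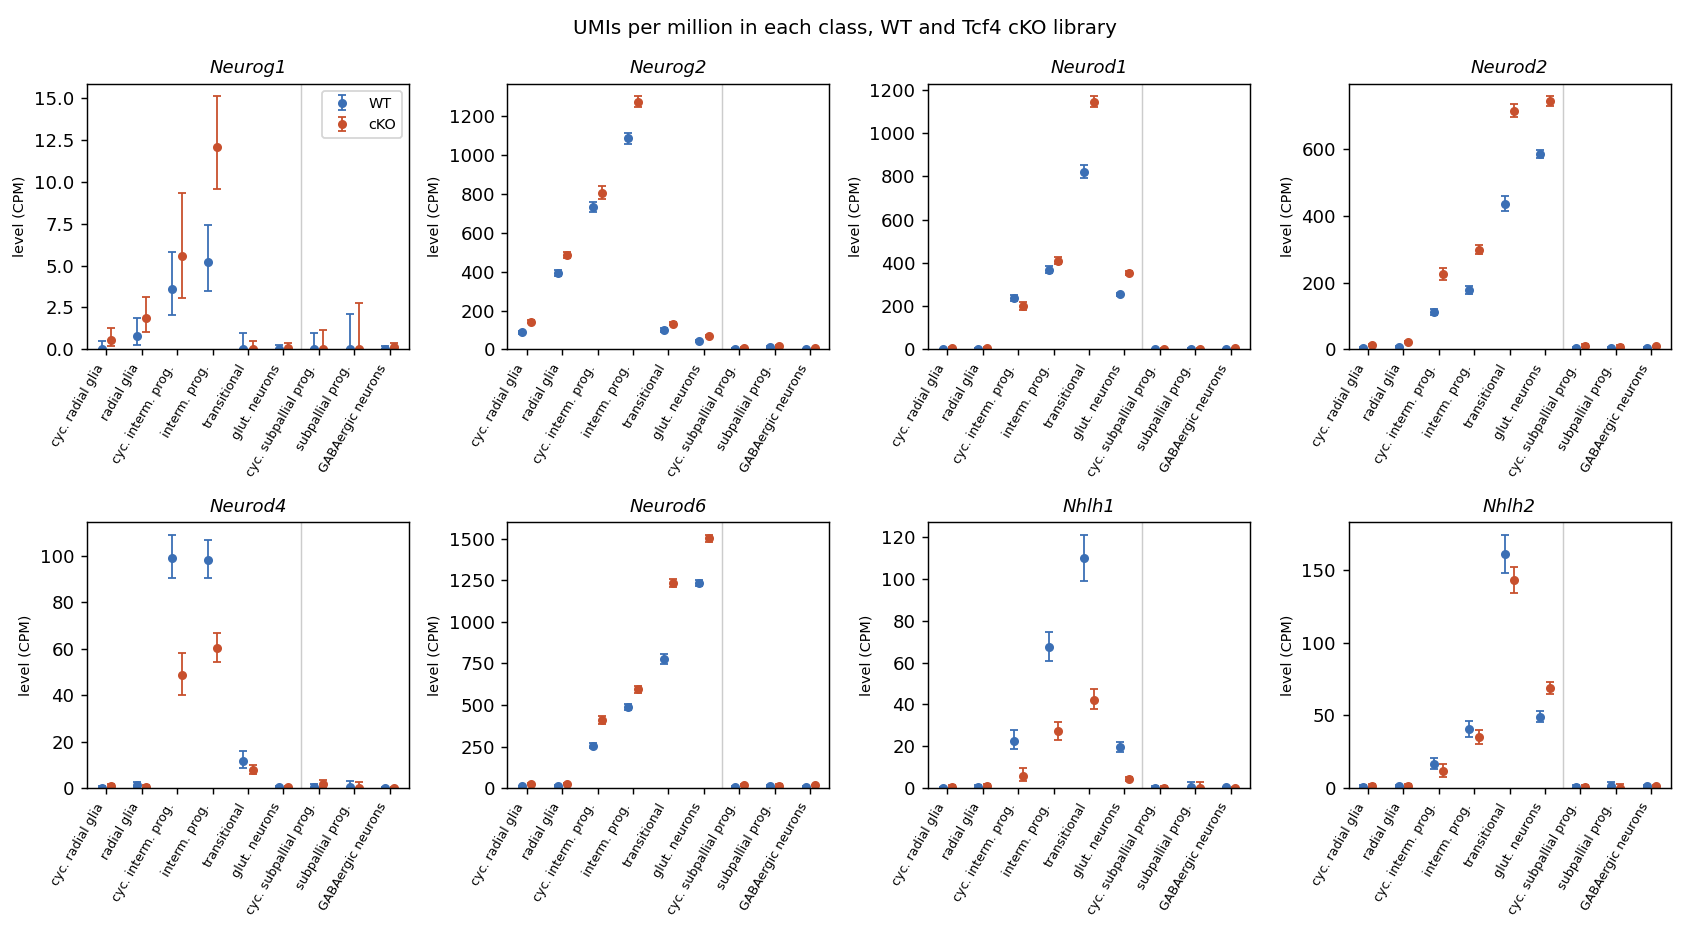
Level of each member (CPM, linear axis from 0, scale differs by panel) in 9 classes, for the WT (blue) and cKO (red) library, with 95% Poisson intervals; the grey line separates pallial from subpallial classes. Neurog2 peaks at 1085 CPM (WT) and 1274 CPM (cKO) in intermediate progenitors, and Nhlh1 stands at 110 CPM (WT) and 42.3 CPM (cKO) in transitional cells.

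Outside this sequence, Nhlh2 was highest in Cajal-Retzius cells, early-born neurons of the cortical surface, at 1131 CPM (1066 to 1198) in 74 WT cells and 1004 CPM (933 to 1079) in 64 cKO cells. After each cell was thinned to 3000 UMIs, 94.6% of the WT and 89.1% of the cKO cells in this class had an Nhlh2 UMI. Nhlh1 stood at 115 CPM and 80.3 CPM there, with a ratio of 0.698 (0.501 to 0.963), which is short of the fold used for a call. Neurod6, high in all glutamatergic clusters, held only 39.7 and 44.9 CPM in Cajal-Retzius cells, and Neurod2 23.8 and 24.5 CPM. The 6 pallial classes held 45.7% of all Nhlh2 UMIs in WT and 58.0% in cKO, against 96.9% and 95.8% for Neurog2.

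Nhlh2 was also found in the unnamed cluster 24, at 180 CPM in 113 WT cells and 172 CPM in 100 cKO cells. Transitional cluster 15 held similar levels, at 178 (WT) and 153 (cKO) CPM. The gene leading cluster 24, Gnrh1, came almost wholly from 4 WT and 6 cKO cells with at least 20 Gnrh1 UMIs each, and all of these cells had Nhlh2 UMIs (355 and 323 CPM). The other 109 and 94 cells of cluster 24 held Nhlh2 at 169 and 156 CPM, and 69 and 59 of them had a UMI.

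The subpallial classes held little of any member. In WT subpallial progenitors Neurog2 had 21 UMIs, Neurod6 10.3 CPM, Neurod2 3.99 CPM and Neurod1 3.42 CPM, and no Neurog1 UMI was found in either library (up to 1.71 and 2.27 CPM). Neurog2 was 90.5-fold (59.2 to 146) higher in WT intermediate progenitors than in subpallial progenitors. In thinned cells, 93.8% of WT and 93.5% of cKO subpallial progenitors had no UMI of any member, and 93.9% and 92.0% of GABAergic neurons had none. Microglia, which should lack these genes, held Neurod6 at 35.5 (WT) and 104 (cKO) CPM, above the levels in GABAergic neurons (9.86 and 19.3 CPM). In thinned cells, 7.55% and 15.8% of microglia and 2.85% and 3.94% of GABAergic neurons had a Neurod6 UMI. The GABAergic shares lay below those of the 53 and 57 microglia at the same thinned depth. In WT the intervals of these shares overlap (2.23% to 3.60% in GABAergic neurons and 2.09% to 18.2% in microglia). In cKO they do not (3.24% to 4.74% and 7.48% to 27.9%). Whether the GABAergic UMIs reflect expression was not tested.

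Between the libraries, 20 of the 72 pairs of member and class were called higher in cKO and 7 lower (12 and 4 in thinned cells, which hold fewer UMIs). Only 51 of these pairs reached the 20 UMIs needed for a call, and the share of all genes called in a class was between 1.35% and 3.89% for higher and between 1.45% and 5.00% for lower. The lower pairs were all of Nhlh1 or Neurod4 and all pallial, and 14 of the 20 higher pairs were pallial. The members did not move as a block. In intermediate progenitors, where all 8 had at least 20 UMIs, 2 were called higher (Neurog1 and Neurod2) and 2 lower (Neurod4 and Nhlh1), against 2.31% and 3.01% of all genes tested in that class. The median log2 ratio of the members was 0.19 there, beside -0.02 for all genes.

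Nhlh1 was lower in cKO at every stage where it was expressed. In intermediate progenitors it stood at 67.4 CPM (60.9 to 74.5) in the WT library and 27.1 CPM (23.2 to 31.5) in the cKO library, a ratio of 0.401 (0.333 to 0.482). In transitional cells the levels were 110 and 42.3 CPM, and the ratio was 0.386 (0.333 to 0.449). In cycling intermediate progenitors 101 WT and 15 cKO UMIs gave 22.7 and 5.97 CPM, a ratio of 0.263 (0.142 to 0.455). The intervals of the levels did not overlap in any of these classes.

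The glutamatergic class held Nhlh1 at 19.6 (WT) and 4.31 (cKO) CPM, and its evenly shared cluster 5 at 52.5 CPM and 15.0 CPM, a ratio of 0.285 (0.204 to 0.392). In cluster 11 there were 19 WT UMIs and 1 cKO UMI, a ratio of 0.0509 (0.00122 to 0.320). Both transitional clusters showed the same direction, with ratios of 0.463 in cluster 8 and 0.305 in cluster 15. The share of thinned cells with an Nhlh1 UMI was 28.1% in WT and 10.5% in cKO transitional cells, and 15.4% and 7.36% in intermediate progenitors. Before thinning, 239 of 602 WT intermediate progenitors held 389 UMIs and 134 of 788 cKO ones held 170, at median depths of 9287 and 7550 UMIs per cell.

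Neurod4 was lower in cKO in the classes where it peaks. It stood at 99.3 CPM in the WT and 48.6 CPM (40.3 to 58.0) in the cKO library in cycling intermediate progenitors, a ratio of 0.489 (0.397 to 0.599). In intermediate progenitors 98.3 and 60.4 CPM (54.4 to 66.8) gave a ratio of 0.614 (0.538 to 0.701). Thinned cells with a UMI made up 24.1% and 14.6% of the cycling class and 20.3% and 13.2% of the other. In transitional cells, where Neurod4 is already low, 11.8 and 7.79 CPM gave a ratio of 0.658 (0.437 to 0.997), with 0.499 in cluster 15 and 1.32 (0.606 to 3.18) in cluster 8. The transitional call held under only 4 of 11 other settings, with ratios from 0.532 to 1.08, the last in thinned cells (0.502 to 2.50).

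**Figure D2:**
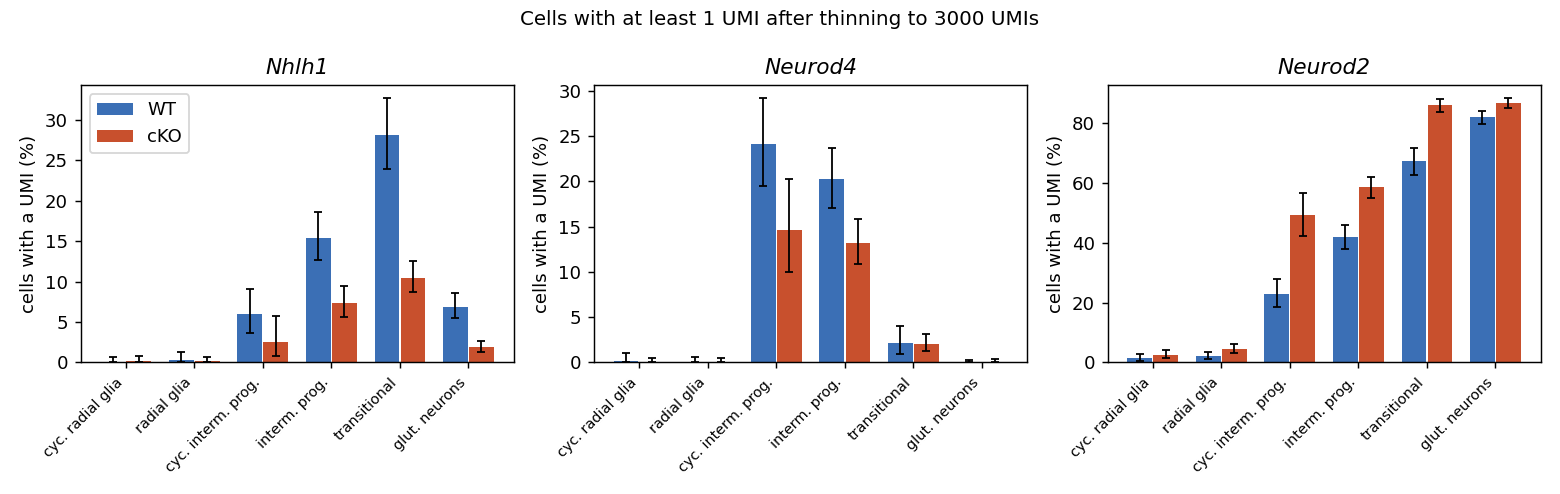
Share of cells with at least 1 UMI (percent, from 0) of Nhlh1, Neurod4 and Neurod2 after each cell was thinned to 3000 UMIs, by pallial class, for WT (blue) and cKO (red), with Clopper-Pearson intervals. The Nhlh1 share in transitional cells is 28.1% in WT and 10.5% in cKO, whereas the Neurod2 share there is 67.1% and 85.8%.

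Neurod2 was higher in cKO from the cycling intermediate progenitors on. There it stood at 112 CPM (102 to 122) in the WT library and 225 CPM (207 to 245) in the cKO library, a ratio of 2.01 (1.78 to 2.28). Intermediate progenitors held 178 and 298 CPM, a ratio of 1.68 (1.55 to 1.81), and transitional cells 436 and 715 CPM, a ratio of 1.64 (1.55 to 1.73). The share of thinned cells with a Neurod2 UMI was 22.9% in WT and 49.2% in cKO in the cycling class. In glutamatergic neurons the ratio was 1.27, with 1.42 (1.35 to 1.49) in cluster 5 and 1.33 in cluster 11. Neurod2 was thus above its WT level in each of these classes and clusters, and short of 1.5-fold in the neurons.

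Neurod6 showed a similar order. Cycling intermediate progenitors held 255 (WT) and 411 (cKO) CPM, a ratio of 1.61 (1.48 to 1.75), and transitional cells 777 and 1235 CPM, a ratio of 1.59 (1.52 to 1.66). The transitional difference was larger in cluster 15, led by Ebf1, Lhx9 and Tac2 (524 and 1101 CPM), than in cluster 8, led by Epha3 and Unc5d (1089 and 1355 CPM). The intervals of their ratios, 1.96 to 2.25 and 1.18 to 1.31, do not overlap. In intermediate progenitors the ratio was 1.22 (486 and 594 CPM), and in cluster 5 it was 1.36 (1188 and 1612 CPM). In cycling intermediate progenitors, calls of Neurod2 and Neurod6 as higher and of Neurod4 and Nhlh1 as lower stood beside 2.15% and 3.16% of all genes. In transitional cells the same 4 members were called in the same directions, beside 3.13% and 3.48%, with Neurod4 the least stable of them. The Neurod6 call in transitional cells held under 9 of 11 other settings, with ratios from 1.29 to 1.60. The summed markers of that class also differed: 11 glutamatergic neuron markers went from 1306 (WT) to 1676 (cKO) CPM, with 10 higher in cKO, and 9 intermediate progenitor markers from 1469 to 1269 CPM, with 1 higher. Their part in the transitional values of Neurod2, Neurod6, Neurod4 and Nhlh1 was not tested.

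**Figure D3:**
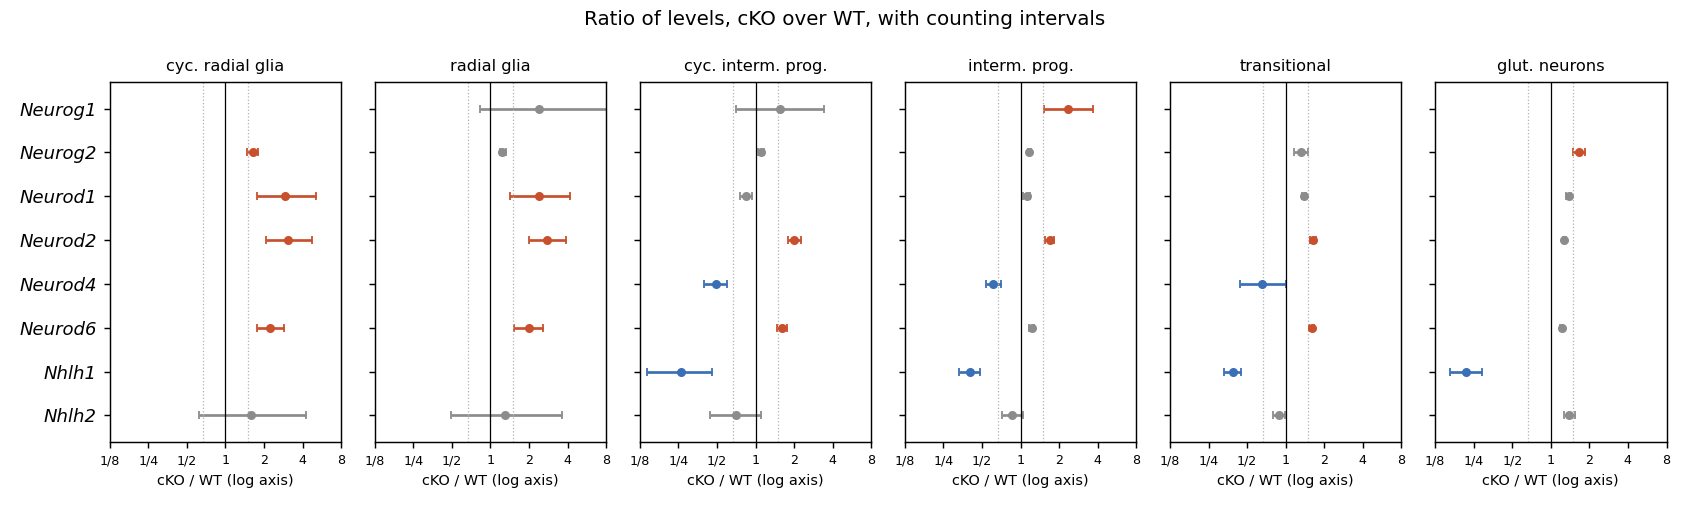
Ratio of the cKO level to the WT level (log axis) for each member in the 6 pallial classes, with 95% counting intervals; dotted lines mark 1.5-fold in each direction, red points were called higher, blue points lower and grey points neither, and pairs under 20 UMIs are not drawn. Nhlh1 lies left of the lower line in 4 classes, with ratios from 0.220 to 0.401, and Neurod2 right of the upper line in all classes but glutamatergic neurons.

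The Neurog2 ratios were nearest 1 in the intermediate progenitor classes, where it peaks in the WT library. Cycling intermediate progenitors held 734 (WT) and 807 (cKO) CPM, a ratio of 1.10 (1.04 to 1.16). Intermediate progenitors held 1085 CPM (1058 to 1112) in the WT library and 1274 CPM (1246 to 1302) in the cKO library, a ratio of 1.17. Cycling radial glia held 87.2 and 142 CPM, a ratio of 1.63 (1.48 to 1.79), and the share of thinned cells with a UMI was 14.6% and 21.5%. Radial glia held 392 and 487 CPM (ratio 1.24), with 1.24 in cluster 9 and 1.51 (1.31 to 1.75) in cluster 13.

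In glutamatergic neurons Neurog2 stood at 42.4 (WT) and 70.5 (cKO) CPM, which is 1.66 times the WT level. Clusters 5 and 11 gave 1.57 (1.31 to 1.88) and 1.62 (1.26 to 2.08). In that class Neurog2 was called higher and Nhlh1 lower, against 3.89% and 5.00% of all genes. Cluster 5 gave the same calls against 3.46% and 4.57%, and cluster 11 called Neurog2 and Nhlh2 higher and Nhlh1 lower against 5.22% and 5.12%. Neurog1 was called higher in intermediate progenitors, at 5.20 CPM in the WT and 12.1 CPM (9.54 to 15.1) in the cKO library, a ratio of 2.33 (1.51 to 3.68). Its UMIs came from 26 WT and 60 cKO cells, with at most 4 UMIs in a cell.

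Neurod1 and Nhlh2 differed less. Neurod1 stood at 822 (WT) and 1145 (cKO) CPM in transitional cells, a ratio of 1.39 (1.34 to 1.45), at 1.12 in intermediate progenitors, and at 0.844 (0.757 to 0.939) in cycling ones. Clusters 8 and 15 gave 1.42 and 1.36, the glutamatergic class 1.38 (1.32 to 1.44) and its cluster 5 1.13. Nhlh2 stood at 161 (WT) and 143 (cKO) CPM in transitional cells, a ratio of 0.888, beside 0.386 for its relative Nhlh1 in the same cells. The order was turned in later cells. Nhlh2 stood at 48.9 and 68.6 CPM in glutamatergic neurons, a ratio of 1.40 (1.27 to 1.55), with 1.20 (1.04 to 1.37) in cluster 5. In cluster 11 it stood at 79.7 CPM (71.7 to 88.3) in the WT library and 142 CPM (131 to 153) in the cKO library, a ratio of 1.78 (1.56 to 2.02).

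**Figure D4:**
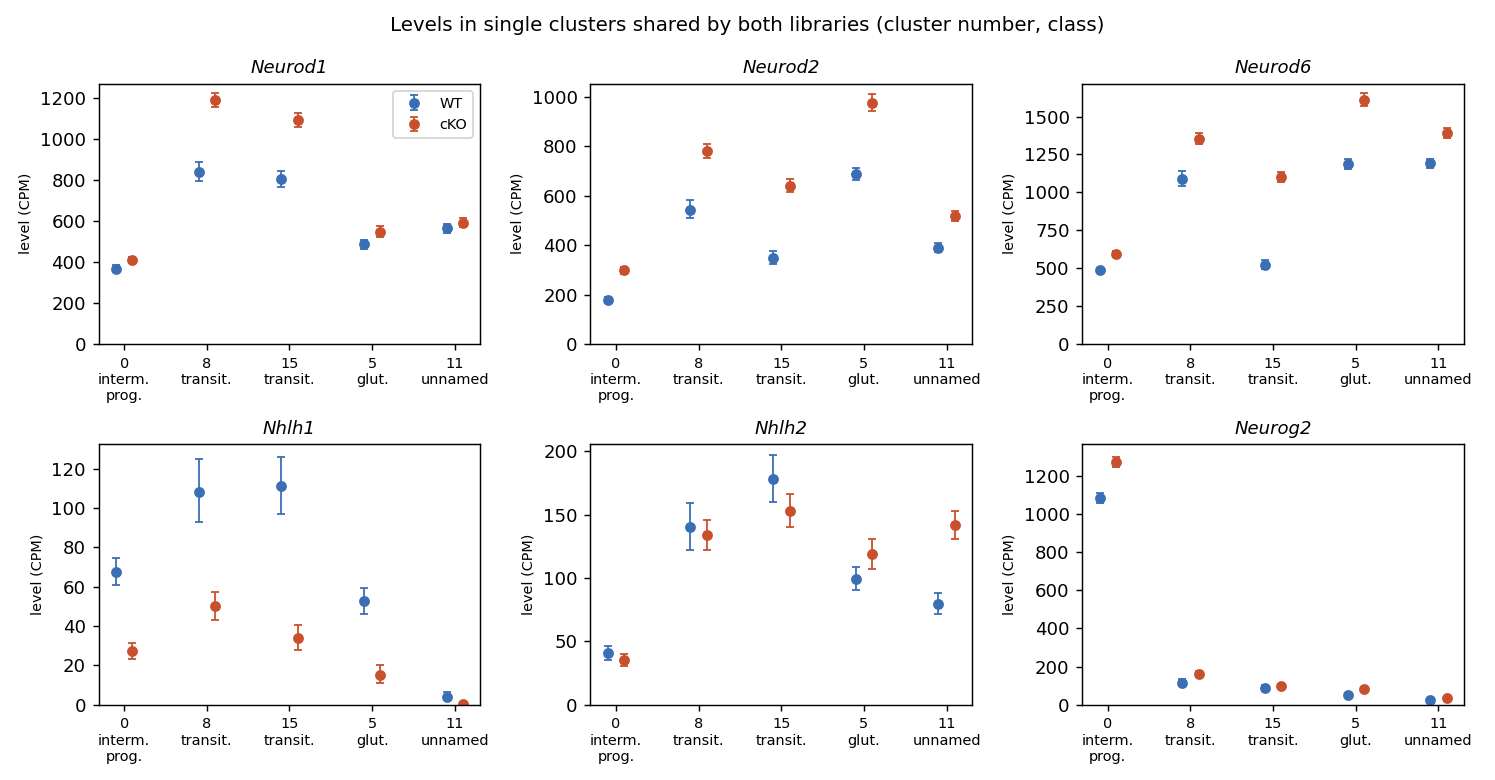
Level of 6 members (CPM, linear axis from 0) in intermediate progenitors (cluster 0), both transitional clusters (8 and 15), the evenly shared glutamatergic cluster 5 and the unnamed cluster 11, for WT (blue) and cKO (red), with 95% Poisson intervals. Nhlh1 is lower in cKO in all 5 clusters, Neurod2 and Neurod6 are higher in all 5, and Nhlh2 differs by more than 1.5-fold only in cluster 11 (79.7 and 142 CPM).

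The intermediate progenitors were also grouped by their Eomes UMIs in thinned cells, a grouping chosen after the class values were known. A thinned cell holds few Eomes UMIs, so sampling alone moves cells between groups, and the groups need not separate early from late cells. A class can hold different mixtures of early and late cells in each library, and the part of such mixtures in the ratios was not tested. Nhlh1 was lower in cKO in all 4 groups, with levels of 82.2 and 25.7 CPM without an Eomes UMI, 61.6 and 23.4 CPM with 1, 72.7 and 25.4 CPM with 2 to 3, and 56.1 and 33.0 CPM with 4 or more. Neurod4 was lower in the 3 groups with an Eomes UMI, with ratios of 0.583, 0.672 and 0.472, and its interval included 1 in the group without (0.874, 0.574 to 1.32). The Neurod2 ratios in the 3 groups with an Eomes UMI were 1.74, 1.71 and 1.87, and 1.21 (0.982 to 1.49) without. The groups without an Eomes UMI were the smallest, with 84 WT and 90 cKO cells.

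**Figure D5:**
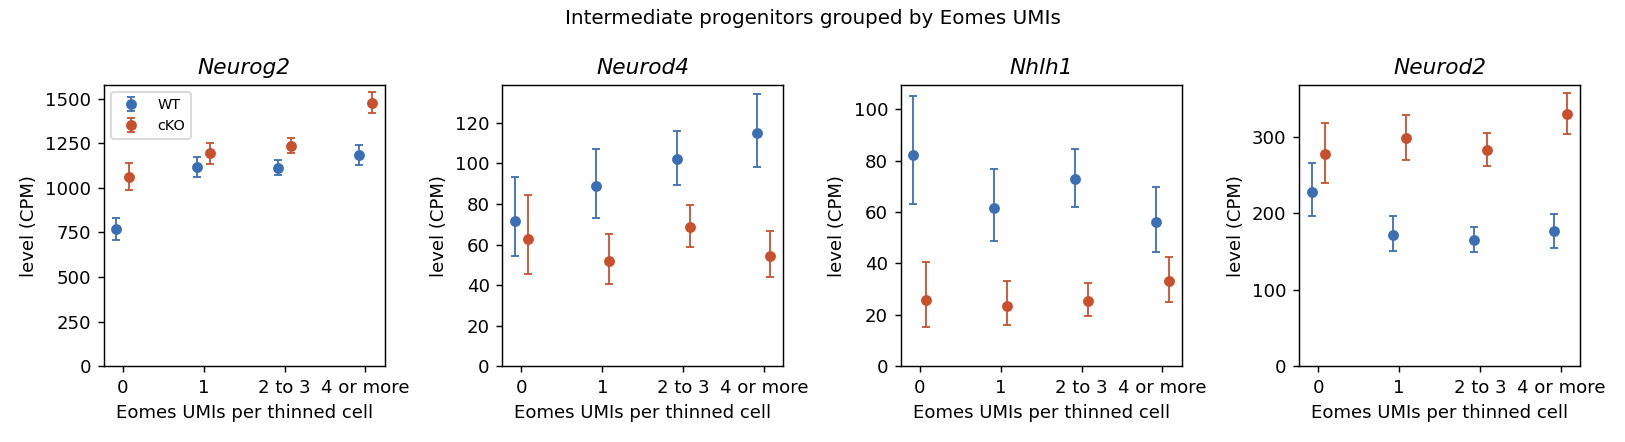
Level (CPM, linear axis from 0) of Neurog2, Neurod4, Nhlh1 and Neurod2 in intermediate progenitors grouped by Eomes UMIs per thinned cell (0, 1, 2 to 3, 4 or more), for WT (blue) and cKO (red), with 95% Poisson intervals. In cells with 4 or more Eomes UMIs, Neurod4 stands at 115 (WT) and 54.4 (cKO) CPM, and Neurog2 at 1182 and 1478 CPM.

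Cells of the late progenitor stages carried several members at once. In thinned WT cells the share with UMIs of 2 or more members was 3.85% in radial glia, 85.2% in intermediate progenitors, 93.1% in transitional cells and 88.8% in glutamatergic neurons. The cKO shares were 6.79%, 89.6%, 97.8% and 93.9%. Within WT intermediate progenitors, Neurod1 was found in 41.9% of cells with a Neurog2 UMI and in 77.7% of those without one. The cKO values were 43.8% and 81.7%. Nhlh1 was found in 20.7% of WT cells with a Neurod1 UMI and in 10.1% of those without, and in 10.9% of cKO cells with one. In the WT cycling intermediate progenitors, a different class, Neurod4 was found in 26.4% of cells with a Neurod1 UMI and 22.7% of those without.

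In radial glia Neurod1, Neurod2 and Neurod6 were found at low levels that were higher in cKO. Neurod4, with 8 WT and 4 cKO UMIs there, was too low for a call. Neurod2 stood at 7.76 (WT) and 21.5 (cKO) CPM in radial glia (ratio 2.77, 2.01 to 3.89), Neurod6 at 13.1 and 26.1 CPM (1.98, 1.53 to 2.59) and Neurod1 at 3.17 and 7.55 CPM (2.39, 1.42 to 4.18). These were 3 members called higher and 0 called lower, against 1.49% and 2.94% of all genes. Cycling radial glia gave ratios of 3.10 for Neurod2, 2.24 for Neurod6 and 2.94 for Neurod1, so that with Neurog2 4 members were called higher and 0 lower, against 2.0% and 2.64%. Free RNA from lysed cells accounts for an estimated 8.11 CPM of Neurod6 in WT and 4.48 CPM in cKO, and for 3.07 and 1.94 CPM of Neurod2. Microglia held Neurod6 at 35.5 (WT) and 104 (cKO) CPM, Neurod2 at 24.7 and 62.4 CPM and Neurod1 at 35.5 and 40.0 CPM. In both radial glia classes the levels of these 3 genes lay below those of microglia in the same library. How far stray RNA or undetected doublets set the radial glia levels was not tested.

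A few radial glia with many UMIs weighed on these sums. In cKO cycling radial glia, 8 of 679 cells held 78 of 250 Neurod6 UMIs, whereas in WT 1 of 515 cells had 5 or more. The summed level of 11 glutamatergic neuron markers moved the same way, from 236 to 263 CPM in radial glia and from 195 to 232 CPM in cycling ones, with 9 of 11 markers higher in cKO in each. So did 10 GABAergic neuron markers, from 186 to 224 CPM (10 higher) and from 190 to 220 CPM (9 higher), and in cycling intermediate progenitors from 155 to 232 CPM (10 higher). The part of these markers in the member values was not tested. When cells were taken by marker UMIs without clustering, the cycling radial glia ratio was 0.988 for Neurod2 and 0.798 (0.648 to 0.982) for Neurod6, whereas in radial glia that grouping gave 7.87 for Neurod1, 4.34 for Neurod6 and 1.99 for Neurod2. Subtracting the estimated free RNA raised the cycling ratios to 9.89 for Neurod2, 5.48 for Neurod6 and 5.87 for Neurod1.

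The subpallial and GABAergic calls rested on similarly low levels. In cycling subpallial progenitors, Neurog2 (2.64 and 8.25 CPM), Neurod2 (4.22 and 11.1 CPM) and Neurod6 (8.97 and 16.8 CPM) were called higher and 0 members lower, against 1.35% and 1.80% of all genes. Of the 26 cKO UMIs of Neurog2 there, 13 came from 1 cell. In GABAergic neurons Neurod1 (2.29 and 5.12 CPM), Neurod2 (5.15 and 9.36 CPM) and Neurod6 (9.86 and 19.3 CPM) were called higher and 0 lower, against 3.01% and 1.45%, and 13 of 2740 cKO cells held 128 of the 419 Neurod6 UMIs. Non-cycling subpallial progenitors had 0 calls in either direction, against 1.53% and 1.96%, with 2 members at 20 UMIs or more. These levels lie below those in microglia, and how far stray RNA or undetected doublets set them was not tested.

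The partners of these factors were compared through lists of genes. Of the E proteins, Tcf3 and Tcf12 had ratios from 0.855 to 1.16 in all 9 classes, so that Tcf4 was the only E protein called in any class. The Id genes, which antagonise E proteins, were lower in cKO in every class where one was called except cycling intermediate progenitors, which had 1 call in each direction. Of all genes, between 1.45% and 5.00% were called lower in a class. Id2 stood at 219 (WT) and 103 (cKO) CPM in intermediate progenitors (ratio 0.471), 329 and 82.9 CPM in transitional cells (0.252), 645 and 92.1 CPM in cluster 5 (0.143), and 375 and 10.1 CPM in cluster 11 (0.0270). In intermediate progenitors 3 of the 4 Id genes were called lower (Id1, Id2 and Id3) and 0 higher, against 3.01% and 2.31% of all genes. In radial glia Id3 was called lower (431 and 272 CPM, ratio 0.631), and in cycling intermediate progenitors Id4 was called higher (31.0 and 48.2 CPM).

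Among 6 Hes and Hey genes, the Notch-dependent repressors of proneural genes, Hey2 was the only one called: it was lower in both radial glia classes, in intermediate progenitors and in glutamatergic neurons, at 17.6 (WT) and 9.69 (cKO) CPM in radial glia. Hes5 was at 292 and 201 CPM there, a ratio of 0.690 (0.645 to 0.738) that missed the fold for a call. Of the other neural bHLH genes listed, Olig2 was lower in cycling radial glia (17.1 and 4.60 CPM). Olig1 was lower there (28.2 and 12.3 CPM) and in radial glia (13.8 and 7.05 CPM). Bhlhe22 was higher in cycling radial glia (6.52 and 11.1 CPM). It was lower in intermediate progenitors (47.5 and 30.3 CPM) and cluster 11 (573 and 274 CPM). Npas3 was lower in cluster 11. Of all genes, 2.64% were called lower in cycling radial glia, 2.94% in radial glia and 3.01% in intermediate progenitors. The share in cluster 11 was 5.12%. Between 1.35% and 3.89% were called higher in a class.

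Of 24 genes known to act with or downstream of proneural factors, 23 had at least 20 UMIs in intermediate progenitors. There 0 were called higher and 1 lower, Prdm8 (15.3 and 6.69 CPM), against 2.31% and 3.01% of all genes. The list median log2 ratio in that class was 0.02. Eomes itself stood at 797 (WT) and 873 (cKO) CPM there. Transitional cells, cluster 5 and cycling radial glia each had 22 of the 24 genes at 20 UMIs or more. In transitional cells the Notch pathway genes Dll3 (24.8 and 12.4 CPM) and Mfng (51.7 and 31.6 CPM) and the growth-arrest gene Gadd45g (93.9 and 50.9 CPM) were lower. In that class 0 were higher, and the shares of all genes were 3.48% lower and 3.13% higher. In cluster 5, 5 were lower and 3 higher, against 4.57% and 3.46% of all genes. Among the lower ones were the somatostatin receptor Sstr2 (78.2 and 26.7 CPM), the Notch ligand Dll1 (61.1 and 26.0 CPM) and the microtubule regulator Stmn2 (808 and 492 CPM). Eomes (10.4 and 22.1 CPM) was among the higher ones. The glutamatergic class as a whole had 5 of 23 genes lower and 0 higher, against 5.00% and 3.89% of all genes. In cluster 11, 7 of 22 were lower, Eomes among them, and 0 higher, against 5.12% and 5.22%. In cycling radial glia 7 of the 24 were higher and 0 lower, among them Insm1 (48.0 and 82.4 CPM), Eomes (10.3 and 17.4 CPM) and Dcx (20.1 and 36.7 CPM).

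Outside the 8 members, the genes most like each member were found by the correlation of log2 levels over 28 WT clusters with at least 50 cells, a description in which all points share 1 library. Neurod4 was most like Eomes (r = 0.84, and 0.81 over the cKO clusters), Neurog2 like Otx1 (0.87 and 0.85) and the cortical factor Emx1 (0.86 and 0.87), and Neurod1 like Sstr2 (0.94 and 0.74). Neurod2 and Neurod6 shared Bhlhe22 (0.92 and 0.91 in WT) and Ppp1r14a (0.92 and 0.91). Nhlh1 was most like Tac2, which encodes neurokinin B (0.89 in WT and 0.66 in cKO), and Nhlh2 like Nxph4 and Tbr1 (0.94 and 0.93 in WT). Neurog1, at 5.20 CPM or less in every WT cluster, gave values of at most 0.68. Between members, the correlation in WT was 0.99 for Neurod2 with Neurod6, 0.96 for Neurod1 with each of these, and 0.85 for Neurod4 with Neurog1.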

How the data were processed

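Single-cell RNA was measured with the 10x Genomics 3' protocol in 1 WT and 1 Tcf4 cKO library. The deposited matrices hold UMI counts per gene and barcode, without normalization and with empty droplets. Per the file headers they were written by Cell Ranger 7.1.0, but Cell Ranger 2.1.1, with mm10, is named in the submitters' processing notes. The annotation release and intron setting are not given in the sources used here, and 99.6% of the 32285 gene identifiers matched GENCODE vM21.

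The rest was computed from the counts with scanpy 1.11.5 in Python 3.11.15. A cell needed a UMI total of at least a divisor of 10 below percentile 99 of the 5000 largest totals (3348 UMIs in WT, 3341 in cKO), 500 genes and at most 10% mitochondrial UMIs. Scrublet (expected rate 6%) removed 330 WT (3.68%) and 526 cKO (4.93%) cells as doublets. Cells of both libraries were clustered jointly on 2000 variable genes, 30 components, 15 neighbours and Leiden resolution 1, without the members, Tcf4 and sex-linked, mitochondrial, ribosomal and haemoglobin genes. A cluster was named when at least 3 markers of a class counted (in 20% of cells, 1.5-fold over the rest) and led the next class 1.5-fold, unless another class had more markers among its 10 leading genes or Gnrh1 was one of these. These rules were set after the clusters were seen, and 16.2% of WT and 10.7% of cKO cells stayed unnamed. Droplets of 10 to 100 UMIs gave the free RNA, an estimated 2.29% of cell UMIs in the WT library and 1.20% in the other. Log2 ratios used a pseudocount of 5 CPM.

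Named genes were the members, the 3 genes most correlated with each, list members past 1.5-fold (up to 8 per class and direction) and Tcf4. The E-box and Eomes groupings and the split of cluster 24 were added with values known. The members and lists were chosen with earlier results of these data known. The ratio calls were tested on simulated data. Results for 1 gene of the lists are not reported here.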

Additional observations from a re-analysis of the deposited data

How the results depend on the processing

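Each ratio was recomputed under 12 other settings, and 493 of 600 values lay within the interval of the main ratio, 104 moved outside it and 3 turned direction. The turned values were Neurod2 (0.988) and Neurod6 (0.798) in cycling pallial radial glia with cells taken by marker UMIs, and Neurod4 in transitional cells (1.08) with cells thinned to 3000 UMIs. With thinned cells, which hold fewer UMIs, the counts of called pairs were 12 higher and 4 lower. Of 50 ratios under that setting, 14 moved outside the main interval and 1 turned direction. What lowered the counts was not tested. Of the 27 called pairs, 5 higher and 4 lower ones were called under every setting that gave a value. Doublets kept left no transitional class, and resolution 0.5 left no separate non-cycling subpallial class, so these gave no values there. No paired analysis was possible because there is 1 library per genotype and the labels give no replicate numbers, and no replicate could be left out. Among the 9 classes, Neurog1 reached 20 UMIs over both libraries only in non-cycling radial glia and both intermediate progenitor classes. Neurod4 and Nhlh1 stayed under 20 UMIs in both radial glia classes and in all subpallial and GABAergic classes. Neurod4 did so in glutamatergic neurons as well, and Nhlh2 in both subpallial progenitor classes. In the other named classes, depth limits Neurog1 and Neurod4 throughout, and Nhlh1 and Nhlh2 outside Cajal-Retzius cells.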

Other observations

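Neurog2 was also higher in the cKO library in several groups outside the pallial sequence, at low levels, and the groups given here were chosen after their values were seen. Six3 astroglia (cluster 17), with Six3 at 270 CPM and Emx1 at 2.83 CPM, held 10.4 CPM (6.38 to 16.1) of Neurog2 as WT and 31.0 CPM (24.2 to 39.0) as cKO cells. The unnamed cluster 1, led by Fgf8, Fgf17 and Foxj1, held 10.3 CPM (8.19 to 12.8) and 37.8 CPM (32.0 to 44.4), and 1.51% and 3.04% of its thinned cells had a UMI. In cluster 24 the levels were 9.62 and 52.9 CPM. Microglia also held more Neurog2 in cKO, at 9.26 and 36.8 CPM from 6 and 23 UMIs. In free RNA Neurog2 stood at 48.6 and 114 CPM, which adds an estimated 1.11 (WT) and 1.37 (cKO) CPM to cells. GABAergic neurons of cluster 10 were lower in cKO, at 9.11 and 3.52 CPM, a ratio of 0.386 (0.151 to 0.883). The part of free RNA in these differences was not tested. Cajal-Retzius cells gave a ratio of 0.888 (0.376 to 2.01) and cycling Six3 astroglia 1.01 (0.570 to 1.76).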
